A study of Mus musculus with 6 samples.

Results

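The genes described here encode the cytosolic translation initiation factors (symbols starting with Eif and a digit) and elongation factors (Eef and a digit) of the mouse, together with kinases and binding proteins whose symbols carry the same stem. All symbols of that form in the count table were taken, leaving out Eif2s3x, Eif2s3y and pseudogenes, and a gene was kept if it had at least 10 counts over the 6 libraries. Of 24421 genes in the table, 59 were members, 50 with an Eif symbol and 9 with an Eef symbol. Eif4e1b, Eif3j1 and Eif3j2 were listed at 0 counts in all 6 libraries and were left out. The limit that a count of 0 allows, 3 counts, corresponds to a CPM (counts scaled to a common library size) of 0.125 to 0.158. Eif3j1 and Eif3j2 are closely similar copies, and how reads that match both were handled is not given in the sources used here. All 59 members passed the filter on low counts in each comparison, and the least abundant had 234 counts in total.

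The study profiled RNA bound to tagged ribosomes in brains of mice that lose ankyrin-G, a membrane scaffold protein encoded by Ank3. In this RiboTag design Cre recombinase turns on a copy of the ribosomal protein Rpl22 that carries an HA tag. An HA antibody is then meant to pull down ribosomes, with their mRNA, from recombined cells only. Control mice were NG2CreERTM;Rpl22HA/+ and the knockout mice (icKO) were NG2CreERTM;Ank3F/F;Rpl22HA/+, so both genotypes carried the Cre driver and the tag. Mice of both genotypes were 8 weeks old when they received tamoxifen at 100 mg/kg per day on 5 days, and whole brains were taken 1 month later. Each library came from 3 pooled animals. The pull-down (IP) was sequenced in 2 libraries of each genotype, and the input, 10% of the cleared homogenate, in 1 library of each genotype. The NG2 promoter is active in oligodendrocyte precursors and also in pericytes, so the tagged cells can include precursors, the oligodendrocytes that form from them, and pericytes. Strain background and sex are not given in the labels.

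Translation of most mRNAs starts when eIF4E binds the cap, eIF4G and the helicase eIF4A prepare the mRNA, and the small ribosomal subunit, loaded with eIF1, eIF1A, eIF3, eIF5 and the eIF2 complex with initiator tRNA, scans to the start codon. Stress kinases phosphorylate eIF2 and thereby block its exchange factor eIF2B, and 4E-BP proteins under mTOR control sequester eIF4E. During elongation eEF1A brings aminoacyl-tRNA, eEF1B recycles eEF1A, eEF2 moves the ribosome along and eIF5A relieves stalling, while the kinase eEF2K inhibits eEF2. Oligodendrocytes make large amounts of membrane protein, and mutations of eIF2B subunits cause a white matter disease, vanishing white matter, in humans.

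Library totals ran from 18968806 to 23930812 counts. The 59 members together took 0.972% (control) and 0.932% (icKO) of input counts. Their share was 0.764% and 0.762% in the control pull-downs and 0.648% and 0.643% in those of icKO. Markers of the cell types that can be tagged were present. The 15 genes of mature oligodendrocytes summed to 3612 and 3577 CPM in the inputs. Their sums were 26324 and 26498 CPM in control pull-downs, and 16263 and 16151 CPM after Ank3 loss. The 8 precursor markers summed to 292 and 317 CPM in the inputs and to 6060 to 6599 CPM in the 4 IPs. The pericyte and smooth muscle list summed to 109 and 101 CPM in the inputs. It was lower in icKO as well, from 1590 and 1594 CPM in control IPs to 813 and 829 CPM in icKO IPs. Median log2 differences of IP and input over both genotypes were 4.71 for precursor markers, 3.30 for pericyte and smooth muscle markers and 2.54 for mature oligodendrocyte markers. No marker of any cell type list was at 0 in an IP. The 12 neuron markers summed to 11765 and 12002 CPM in the inputs, but to 2698 and 2740 CPM in control IPs against 3093 and 3043 CPM in icKO IPs. Astrocyte, microglia and endothelium lists were also lower in every IP than in either input (1801 to 1862, 79.6 to 90.2 and 44.7 to 53.4 CPM in IPs). RNA of neuron, astrocyte and other such markers was thus still present in the IPs. In whole-tissue pull-downs, fewer cells of a type and less RNA per cell cannot be told apart. Eif2s3y, a Y-linked gene outside the member list, read 11.6 CPM (control) and 4.23 CPM (icKO) in the inputs, and 31.7 and 25.2 CPM in control IPs against 16.9 and 13.7 CPM in icKO IPs, so that it was lower in icKO pools in both kinds of RNA. Sex makeup of the pools and genotype cannot be told apart here. The part that these shifts play in the results below was not tested.

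Levels of the members spanned a wide range. CPM per kb of transcript, scaled by the trimmed mean of M values (TMM), was used to compare levels between genes. In control IPs the mean over 2 libraries was 454 CPM per kb for Eef1a1 (eEF1A1, the general form of eEF1A, ENSMUSG00000037742.14, chromosome 9, 78478449 to 78489151, minus strand, GRCm38), 292 CPM per kb for Eef2 (eEF2) and 153 CPM per kb for Eef1a2, the form of eEF1A that neurons and muscle use (ENSMUSG00000016349.10, chromosome 2, 181147653 to 181157014, minus strand). These 3 elongation factors stood above every initiation factor, of which the highest was Eif4a1 (the main eIF4A helicase) at 107 CPM per kb, followed by Eif4g1 (the main eIF4G scaffold) at 96.5 CPM per kb. At the other end were Eif4ebp1, one of the 4E-BP inhibitors, at 0.981 CPM per kb and Eif2ak2, the kinase PKR that responds to double-stranded RNA, at 2.37 CPM per kb. Subunits of eIF3, the complex that holds the small subunit during scanning, did not share 1 level: they ran from 17.7 CPM per kb for Eif3f to 87.6 CPM per kb for Eif3c.

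Against the input, more members were lower than higher in tagged-ribosome RNA, and 3 of the 4 eIF2 kinases were among the higher ones. Over both genotypes 30 of 59 members were lower in IP than in input, 15 were higher and 14 did not pass (edgeR quasi-likelihood test, Benjamini-Hochberg adjusted p under 0.05, 4 IP and 2 input libraries). Among all 15451 genes tested 35.1% were lower and 34.8% were higher. The median log2 difference was -0.27 over the members and 0.01 over all genes. Each genotype has a single input. Spread in this fit therefore comes from the IP pairs and from any difference between genotypes in the gap between IP and input. Per the labels the IPs are biological replicates, but which mice were pooled is not stated, so the p-values reflect the spread among these libraries alone, and that spread may be technical.

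Among the elongation factors, the eEF1A pair showed the widest gap. Eef1a2 read 1219 and 1265 CPM in the inputs (control first), 317 and 321 CPM in control IPs and 306 and 295 CPM in icKO IPs, which made it 4.01-fold lower in IP (log2 -2.00 ± 0.07 SE, edgeR adjusted p = 9.23e-09). Eef1a1 read 1163 and 999 CPM in the inputs, 817 and 814 CPM in control IPs and 699 and 691 CPM in icKO IPs. Its levels in all 4 IPs were below both inputs, with a log2 difference of -0.52 ± 0.07 (edgeR adjusted p = 5.93e-05). Per kb, the 2 forms were about equal in input, with an Eef1a1 to Eef1a2 ratio of 1.11 and 0.917, while in IPs the ratio was 2.997 and 2.946 in control and 2.65 and 2.72 in icKO. Summed neuron markers were lower in IP as well, as given above. Of the eEF1B exchange complex, Eef1b2 (-0.97) and Eef1g (-0.95) were lower in IP and Eef1d (-0.12, adjusted p = 0.215 in edgeR) did not pass. Eef2 was lower by a log2 difference of -0.44 and its kinase gene Eef2k was 1.54-fold higher in IP (log2 0.62, edgeR adjusted p = 0.000123).

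Eif2ak4 (ENSMUSG00000005102.13, chromosome 2, 118388618 to 118475234, plus strand) encodes GCN2, which senses uncharged tRNA, and read 28.2 and 31.7 CPM in the inputs, 54.4 and 53.7 CPM in control IPs and 78.2 and 78.8 CPM in icKO IPs. Eif2ak3 encodes PERK, the kinase of the endoplasmic reticulum stress response, and read 45.5 and 44.5 CPM in the inputs, 89.6 and 85.5 CPM in control IPs and 71.9 and 78.1 CPM in icKO IPs. All 4 IP libraries lay above both inputs for each gene. The differences were log2 1.12 ± 0.10 for Eif2ak4, 0.85 ± 0.08 for Eif2ak3 and 0.64 ± 0.15 for Eif2ak2 (edgeR adjusted p from 3.53e-06 to 0.00286). Eif2ak1, the heme-regulated kinase HRI, did not pass (log2 -0.13, edgeR adjusted p = 0.144).

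Subunits of 1 complex did not keep 1 ratio to input. Of the 12 eIF3 subunits 3 were higher in IP, namely Eif3a (log2 0.55), Eif3b (0.28) and Eif3d (0.22). Another 7 were lower, from Eif3m (-0.38) to Eif3h (-0.90), and Eif3c and Eif3l did not pass. The same held for the helicases: Eif4a2, the form of eIF4A enriched in brain, was at 476 and 397 CPM in the inputs and at 197 to 206 CPM in the 4 IPs (log2 -1.10), while Eif4a3, a core protein of the exon junction complex, was higher in IP (0.39). For the eIF4G scaffolds, Eif4g1 (0.47) and Eif4g3 (0.23) were higher. Eif4e, the cap-binding protein, was lower (-0.79), and so were its relatives Eif4e2 (-0.30) and Eif4e3 (-0.29).

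Further large differences fell on single genes. Eif4ebp3, a 4E-BP inhibitor, was the member highest over input, at 3.71-fold (log2 1.89 ± 0.21), but its input levels of 1.28 and 1.56 CPM rest on few counts. The start-site scanning group holds 8 genes, of which Eif1ad, Eif2d and Eif5b are not scanning factors in the strict sense. Of the 8, 6 were lower, among them Eif1a (-1.18), Eif1ax (-0.85) and Eif1, whose IP level was 0.499 of the input level, and Eif2d and Eif5b were higher. The eIF5A genes were both lower, Eif5a by a log2 difference of -0.94 and Eif5a2, its paralog of brain and testis, by -1.11. Of the eIF2B subunits, Eif2b5 (-0.37) was lower, Eif2b3 (0.34) was higher and 3 did not pass.

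Some of these calls depended on single libraries or, where an input was left out, on a single genotype. Leaving out an input makes the difference between IP and input rest on the other genotype alone. Without control IP replicate 1, Eif2b3 (adjusted p = 0.052), Eif4ebp2 (0.093) and Eif4h (0.071) no longer passed in edgeR. Eif4h was also lost without icKO IP replicate 1 (0.093), without icKO IP replicate 2 (0.11) and without the icKO input (log2 -0.06, adjusted p = 0.24 in edgeR), Eif2b3 without icKO IP replicate 1 (0.053), and Eif4ebp2 without the control input (0.27), control IP replicate 2 (0.077) or icKO IP replicate 2 (0.060). Without the control input, the log2 differences were -0.21 for Eef1d, -0.40 for Eif6 and -1.12 for Eif4ebp1. In icKO libraries alone they were -0.21, -0.40 and -1.11. Eif4g2 and Eif4a1 differed in sign between genotypes. IP minus input was 0.22 and 0.19 (log2) in control libraries alone and -0.13 for both in icKO libraries alone. Neither passed over both genotypes, where such a difference counts as spread. Longer transcripts were on the whole higher in IP, with a Spearman correlation of the log2 difference with transcript length of 0.27 over the 59 members and 0.18 over 14863 genes, and with that trend removed 26 members were lower and 14 higher.

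**Figure D1:**
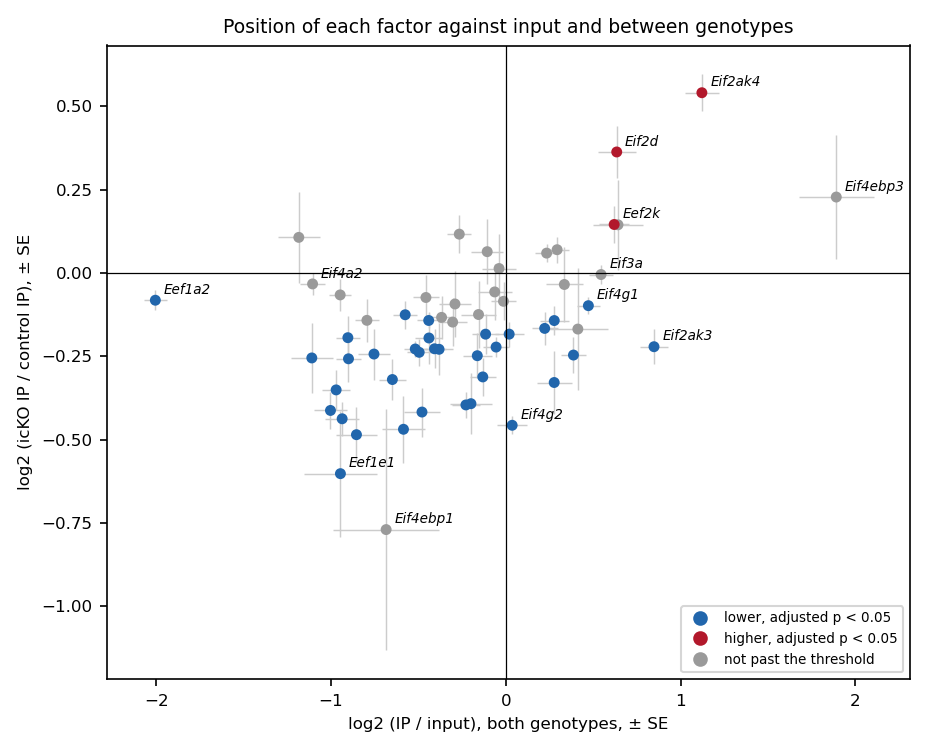
Each point is 1 of the 59 members, with its log2 ratio of IP to input over both genotypes on the horizontal axis and its log2 ratio of icKO IP to control IP on the vertical axis, bars showing SE and colour the call between genotypes. Eef1a2 lies far to the left at -2.00, the 3 genes higher in icKO (Eif2ak4, Eif2d, Eef2k) all lie to the right of 0, and most other points lie below the horizontal line. Scaling to mature oligodendrocyte markers would move the points up by the shift given in the text, and would put 57 members above 0 by the test.

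Between genotypes, the members were mostly lower in icKO than in control tagged-ribosome RNA, by modest amounts. With TMM scaling 34 of 59 (57.6%) were lower, 3 (5.08%) were higher and 22 did not pass (edgeR quasi-likelihood test over 2 control and 2 icKO IPs, Benjamini-Hochberg adjusted p under 0.05). Among 15069 genes tested 25.2% were lower and 22.1% were higher. The median log2 change was -0.17 for the members and 0.0033 for all genes. The direction rests on the scaling: scaled to library totals 43 members were lower and 2 higher, whereas scaled to mature oligodendrocyte markers, which were themselves lower in icKO, 0 were lower and 57 were higher. That scaling moved the median of all genes to 0.71, library totals moved it to -0.08 and markers of other cell types moved it to -0.11. Relative to the median of all genes, the median of the members was -0.17 under each of these scalings. All falls and rises between genotypes below are TMM-scaled and are relative to the bulk of genes in this sense, and on the mature oligodendrocyte scale those falls turn into values above 0.

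The start-site scanning group held some of the largest falls. Eif1, which keeps the small subunit scanning until a start codon is met, was at 83.3 and 79.7 CPM in control IPs and at 59.9 and 62.4 CPM in icKO IPs. Its log2 change was -0.41 ± 0.05 SE (edgeR adjusted p = 1.45e-07). The inputs read 141 and 142 CPM. Its paralog Eif1b went from 47.2 and 49.96 CPM to 33.4 and 39.3 CPM (-0.42). Eif1ax, the X-linked eIF1A, went from 31.5 and 34.8 CPM to 24.2 and 23.1 CPM (-0.49), and the part of the pools' sex makeup in that value was not tested. Eif1ad, an eIF1A-like protein, went from 22.9 and 25.5 CPM to 16.2 and 18.7 CPM (-0.47). Eif5, which makes eIF2 hydrolyse its GTP, fell by 0.13 on the log2 scale. The autosomal Eif1a (0.11, adjusted p = 0.549 in edgeR) and Eif5b (0.07, 0.146), which joins the subunits, did not pass. In all, 5 of the 8 genes of the group fell and 1 rose, where 25.2% of all genes tested fell and 22.1% rose.

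The riser was Eif2d, a factor that can deliver initiator tRNA without eIF2 and helps recycle small subunits. It was at 32.3 and 29.0 CPM in control IPs and 38.1 and 40.6 CPM in icKO IPs, with inputs of 22.5 and 22.1 CPM. The log2 change was 0.36 ± 0.08 (edgeR adjusted p = 0.000206). Denr, which works as a pair with Mcts1 in a manner related to Eif2d, fell by 0.41 on the log2 scale. Eif2d overlaps Rassf5 on the opposite strand over 11249 bases, and whether counting used strand is not given in the sources used here. Rassf5 itself was at 8.33 and 7.26 CPM in control IPs and at 8.20 and 8.94 CPM in icKO IPs.

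Within the eIF2 arm, the kinases moved apart. Eif2ak4 rose from 54.4 and 53.7 CPM to 78.2 and 78.8 CPM, an increase of 45.5% (log2 0.54 ± 0.06, edgeR adjusted p = 8.13e-10), and was the member with the largest rise. Eif2ak3 fell from 89.6 and 85.5 CPM to 71.9 and 78.1 CPM (-0.22 ± 0.05, edgeR adjusted p = 0.000806), and Eif2ak1 from 73.5 and 72.8 CPM to 57.1 and 60.6 CPM (-0.31). The icKO and control libraries were fully separated for these 3 kinases, but also for members that did not pass, such as Eif5b, Eif2b2 and Eef1g. With 2 libraries per group such separation adds little, and its share over all genes was not counted. Eif2ak2 was at 9.62 and 10.8 CPM against 12.4 and 10.2 CPM and did not pass. The per kb ratio of Eif2ak4 to Eif2ak3 was 0.526 and 0.544 in control IPs and 0.942 and 0.874 in icKO IPs, with 0.536 and 0.618 in the inputs. Gcn1l1, whose product activates GCN2, also passed, at 0.12.

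Of the genes of the kinases' substrate eIF2, Eif2s1 and Eif2s2 fell, while those of its exchange factor did not pass. Eif2s3x, the gamma subunit gene outside the member list, did not pass either (log2 0.02, edgeR adjusted p = 0.806). Eif2s1, the eIF2 alpha subunit that the kinases phosphorylate, went from 33.3 and 33.6 CPM to 28.4 and 30.02 CPM (-0.20, edgeR adjusted p = 0.0393), a call that was lost without control IP replicate 1 (adjusted p = 0.092), control IP replicate 2 (0.13) or icKO IP replicate 1 (0.20). In DESeq2 Eif2s1 did not pass (adjusted p = 0.17). Eif2s2, the beta subunit, fell by 0.25 on the log2 scale, and Eif2a, an alternative initiator tRNA carrier, did not pass. Of the 5 eIF2B subunits, the complex whose loss of function harms white matter, 0 passed in edgeR or DESeq2, and 1 had an unadjusted p under 0.05. Their log2 changes ran from -0.13 for Eif2b5, the catalytic epsilon subunit, to 0.01 for Eif2b1.

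Of the 12 eIF3 subunits 9 fell and 0 rose, where 25.2% of all genes tested fell and 22.1% rose. Their median log2 change was -0.21, while DESeq2 called 4 lower. With the trend on transcript length removed, 3 of the 12 passed in edgeR, namely Eif3b, Eif3c and Eif3f, all of them lower. At an unadjusted p under 0.05 in edgeR 0 were higher. Eif3i had the largest fall, from 58.4 and 57.8 CPM to 45.7 and 47.3 CPM (-0.32 ± 0.06, edgeR adjusted p = 6.01e-05, but -0.13 with an adjusted p of 0.087 once the length trend is removed), and Eif3c, part of the octamer core, went from 297 and 295 CPM to 255 and 252 CPM (-0.22). The subunits that did not pass were Eif3a (0.00, at 429 and 413 CPM against 424 and 415 CPM), Eif3e (-0.07) and Eif3l (-0.09). Eif3a and Eif3c, both core subunits of high level, had a per kb mean of 82.2 and 87.6 CPM in control IPs and of 81.8 and 75.0 CPM in icKO IPs. The call on Eif3h (-0.19) was lost without control IP replicate 2 (-0.15, edgeR adjusted p = 0.16).

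Among the 3 eIF4G genes, Eif4g2 changed most between genotypes. Eif4g2 (ENSMUSG00000005610.17, chromosome 7, 111067750 to 111083030, minus strand) encodes DAP5, an eIF4G relative that cannot bind eIF4E and serves cap-independent initiation. It was at 622 and 615 CPM in control IPs and at 458 and 442 CPM in icKO IPs, with inputs of 533 and 494 CPM, and the control IPs were above the inputs while the icKO IPs were below them. Its fall of 27.2% (log2 -0.46 ± 0.03, edgeR adjusted p = 1.16e-15) had the smallest p-value of all members. Eif4g1 went from 545 and 543 CPM to 512 and 504 CPM (-0.10, edgeR adjusted p = 0.00219), and Eif4g3 from 499 and 503 CPM to 523 and 520.3 CPM (0.06), which missed the threshold at adjusted p = 0.0592. The per kb ratio of Eif4g1 to Eif4g2 was 1.25 ± 0.01 in control IPs and 1.60 ± 0.02 in icKO IPs (SD, n = 2 each), and 1.02 and 1.08 in the inputs.

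The helicase Eif4a1 went from 189 and 190.3 CPM to 172 and 161 CPM (-0.18), and its cofactors Eif4b (-0.24) and Eif4h (-0.40), which stimulate unwinding, and Eif4a3 (-0.25) fell as well. Eif4a2 did not pass, at 206 and 203 CPM against 203 and 197 CPM. The cap-binding genes Eif4e, Eif4e2 and Eif4e3 had log2 changes of -0.14, -0.15 and -0.09, and 0 passed in edgeR or DESeq2, with 2 at an unadjusted p under 0.05. Of their inhibitors, Eif4ebp2, the main 4E-BP of brain, fell from 23.4 and 22.6 CPM to 18.1 and 18.5 CPM (-0.33). Eif4ebp1 had a larger estimate of -0.77, but at 2.14 and 1.77 CPM against 1.39 and 0.883 CPM it missed the threshold (edgeR adjusted p = 0.0800). Eif4ebp3 (0.23) and Eif4enif1 (0.12), which carries eIF4E into the nucleus, did not pass.

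Of the 9 elongation symbols 6 fell and 1 rose, with a median log2 change of -0.17. Of the 50 initiation symbols 28 fell and 2 rose, with a median of -0.18. Over all genes tested 25.2% fell and 22.1% rose. Eef1a1 fell by 14.6%, from 817 and 814 CPM to 699 and 691 CPM (log2 -0.23 ± 0.02, edgeR adjusted p = 1.54e-09). Eef2 went from 908 and 898 CPM to 816 and 818 CPM (-0.14), and Eef1a2 from 317 and 321 CPM to 306 and 295 CPM (-0.08, edgeR adjusted p = 0.0261). The Eef1a2 call was lost without control IP replicate 2 (log2 -0.08) or icKO IP replicate 2 (-0.06). Of eEF1B, Eef1b2, the exchange subunit, fell from 74.4 and 67.9 CPM to 54.3 and 57.0 CPM (-0.35), Eef1d fell by 0.18 (lost without control IP replicate 1, adjusted p = 0.20 in edgeR) and Eef1g did not pass (-0.07).

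Eif5a, the hypusine-bearing factor, fell from 94.9 and 101 CPM to 70.7 and 74.2 CPM (-0.44 ± 0.05, edgeR adjusted p = 1.41e-08). The smaller fall of Eif5a2 (-0.26) was lost without icKO IP replicate 2 (-0.11, adjusted p = 0.52 in edgeR) and without control IP replicate 1 (0.15). Eif6, which keeps the large subunit from joining too early, went from 31.5 and 33.6 CPM to 22.0 and 27.6 CPM (-0.39). Eef1e1, a scaffold of the tRNA synthetase complex, had the largest fall among the members that passed (-0.60 ± 0.19), with 5.91 and 8.70 CPM against 5.25 and 4.41 CPM. It rests on control IP replicate 2: without that library its log2 change was -0.29 (edgeR adjusted p = 0.33), and leaving out icKO IP replicate 2 gave -0.49 (0.055). The fall of Eif5 was likewise lost without control IP replicate 2 (-0.10, adjusted p = 0.12) or icKO IP replicate 2 (-0.08, 0.15).

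Eef2k rose as its substrate gene Eef2 fell, from 64.1 and 66.5 CPM to 73.9 and 70.4 CPM (0.15 ± 0.06, edgeR adjusted p = 0.0304). This rise was among the least stable calls. It did not pass without control IP replicate 1 (adjusted p = 0.19), control IP replicate 2 (0.054) or icKO IP replicate 1 (0.21), with library totals (log2 0.06, adjusted p = 0.40), or with the trend on transcript length removed (0.05, 0.48). Eef2kmt, which methylates eEF2, was at 4.66 to 5.61 CPM in all 4 IPs and did not pass.

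**Figure D2:**
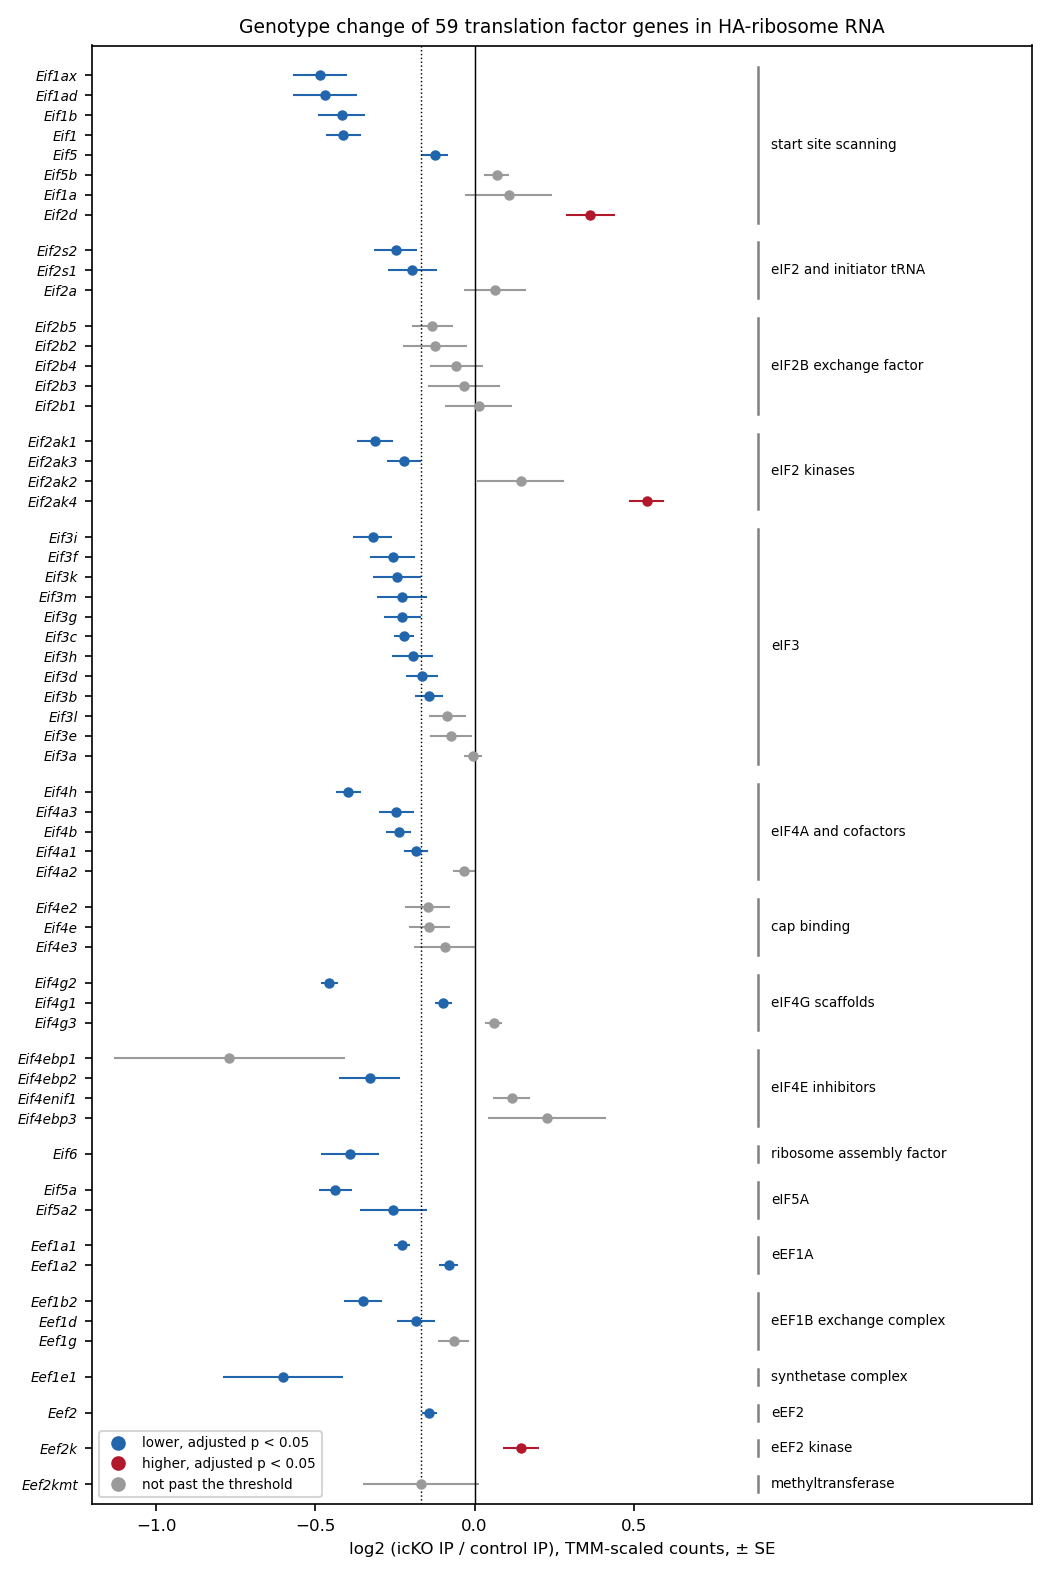
Log2 ratio of icKO IP to control IP for each of the 59 members, grouped by role, with SE bars, blue for lower, red for higher and grey for members that did not pass, and the dotted line at the members' median of -0.17. The eIF3 and eIF4A groups lie left of 0, eIF2B lies near 0, and Eif2ak4 at 0.54 is farthest to the right, all with TMM scaling. Scaled to mature oligodendrocyte markers 57 of the members were higher.

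**Figure D3:**
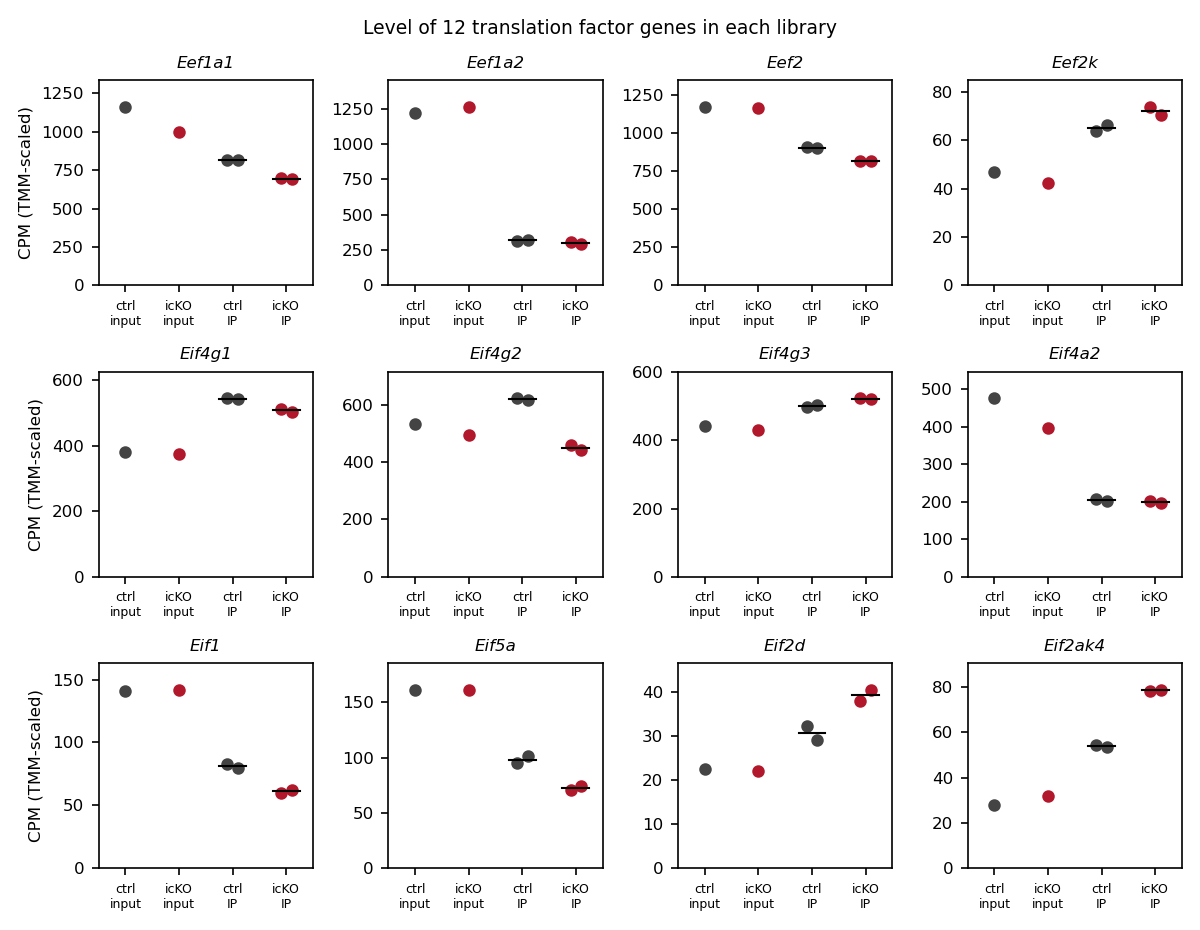
TMM-scaled CPM of 12 members in each of the 6 libraries, in black for control and red for icKO, with a horizontal line at the mean of each IP pair and every vertical axis starting at 0. Both icKO IPs of Eif4g2, Eif1 and Eif5a lie below both control IPs, both of Eif2ak4 lie above them, and Eef1a2 is far lower in all 4 IPs than in the inputs.

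In the inputs the members' ratios between genotypes lay on both sides of 0. There was 1 input per genotype, so these ratios have no replicate check and their intervals cover counting error only. The median log2 ratio of icKO to control input was -0.02, with 35 of 59 (59.3%) below 0. Over 15451 genes the median was 0.01, with 47.5% below 0. Single members ran from -0.40 for Eef2kmt to 0.32 for Eif2ak2, both of them low in counts. The 95% interval lay below 0 for 17 members and above 0 for 7, and the share of all genes with such intervals was not counted. Eif4g2 had a ratio of -0.11 (95% interval -0.15 to -0.07), Eef1a1 of -0.22 (-0.25 to -0.19), Eif4a2 of -0.26 (-0.30 to -0.22) and Eif5a of 0.00 (-0.07 to 0.07).

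Whether the genotype change in IP differed from that in input was tested with the interaction term. With 1 input library per genotype, no spread between inputs can be measured, and the test takes it from the IP pairs, so its p-values are too small if inputs vary more than IPs. For 15 of 59 members the change was lower in IP, for 3 it was higher and for 41 the difference did not pass (edgeR quasi-likelihood test over 4 groups, Benjamini-Hochberg adjusted p under 0.05, 1 input per genotype). Of 15936 genes tested, 13.9% were lower and 9.67% higher. DESeq2 called 7 lower and 1 higher, and library totals gave 24 lower and 1 higher. Eif4g2 (difference -0.36), Eif5a (-0.45), Eif1 (-0.43), Eif4h (-0.33), Eif4a1 (-0.32) and Eif1ax (-0.53) were among the 15. Those of higher change in IP were Eif2ak4 (0.36), Eef2k (0.29) and Eif4a2 (0.22). Eef1a1 was not among the members that differed: its change was -0.23 in IP and -0.22 in input (difference -0.01, edgeR adjusted p = 0.838).

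**Figure D4:**
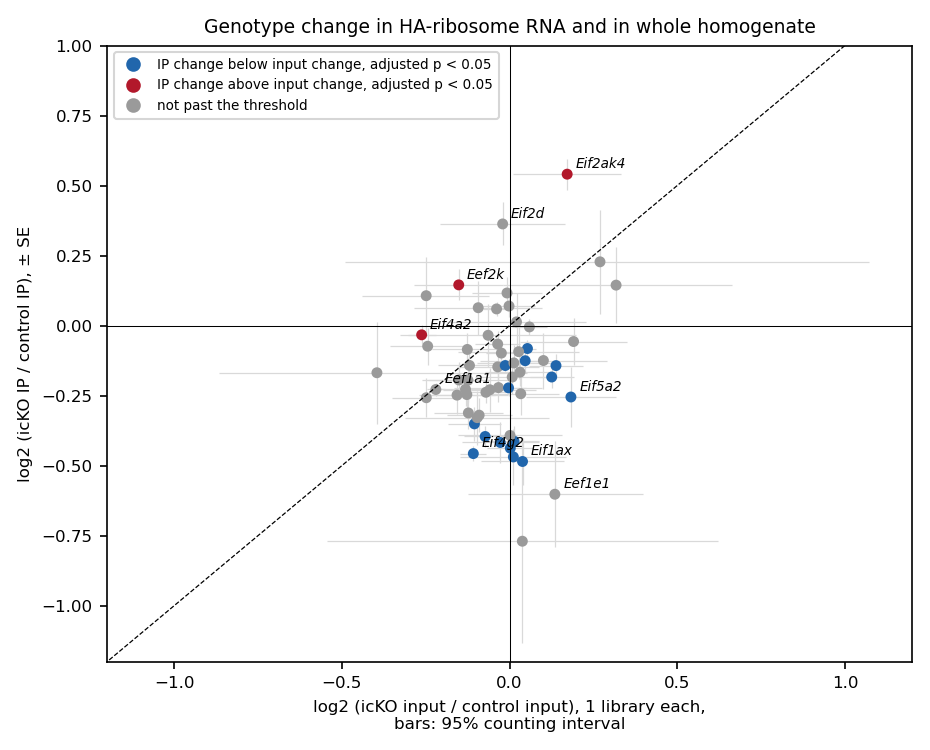
Each point is 1 member, with the log2 ratio of icKO to control input (1 library each, bars for the 95% counting interval) on the horizontal axis and the log2 ratio of icKO to control IP (bars for SE) on the vertical axis, and the dashed line marks equal change. Blue and red points are the 15 members whose TMM-scaled change was lower in IP than in input and the 3 for which it was higher, and Eef1a1 sits on the dashed line. Scaled to mature oligodendrocyte markers the vertical values of most members would lie above 0.

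Promoter sequence was set beside these changes, for the 59 members and for all genes with a promoter window, whether or not they were tested here. RefSeq windows from 250 bases before to 50 bases after a start (GRCm38.p6) were matched for 47 of 59 members. The motifs searched, on both strands, were CACGTG (the E-box that MYC and related factors bind), CCGGAAG (an ETS-type motif) and TGATGNAA (the element that ATF4 binds in stress targets). CACGTG was in windows of 12 of the 47 members (25.5%) and of 8.09% of all 27025 genes. By window, it was in 22.6% of the 62 member windows and in 7.15% of all 32851 windows. It occurs in the windows of the cap-complex genes Eif4e, Eif4a1 and Eif4g1, of Eif5a, and of both Eef2 and its kinase gene Eef2k, which is why those are shown, 5′ to 3′ along each gene's strand with the motif in capitals. The stretches lie at chr3:138527177-138527236 (plus), chr11:69672580-69672639 (minus), chr16:20672646-20672705 (plus), chr11:69921428-69921487 (minus), chr10:81176561-81176620 (plus) and chr7:120842773-120842832 (plus).
Eif4e: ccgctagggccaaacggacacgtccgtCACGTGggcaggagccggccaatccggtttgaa
Eif4a1: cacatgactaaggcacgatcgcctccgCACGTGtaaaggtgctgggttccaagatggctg
Eif4g1: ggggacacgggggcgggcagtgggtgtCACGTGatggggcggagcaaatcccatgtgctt
Eif5a: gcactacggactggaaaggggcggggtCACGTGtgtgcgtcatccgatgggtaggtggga
Eef2: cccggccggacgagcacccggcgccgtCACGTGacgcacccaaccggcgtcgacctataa
Eef2k: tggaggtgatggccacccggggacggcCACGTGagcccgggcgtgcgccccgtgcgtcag

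The ETS-type motif was in windows of 17 of 47 members (36.2%) and of 9.93% of all genes. By window, it was in 32.3% of member windows and in 8.86% of all windows. Eif1ax, Eif1ad and Eif1b hold the motif upstream of their start and are shown in the same way, picked as genes of the scanning group with large falls. Eif1, with a fall of -0.41, is not among the 17. Of the 17, 12 fell, while Eif4enif1 (0.12), Eif3l (-0.09), Eif2b2 (-0.12), Eif2b4 (-0.06) and Eif4e2 (-0.15) did not pass. In the stretches, CTTCCGG is the motif read on the other strand. Those shown lie at chrX:159371939-159371999 (plus), chr19:5366629-5366689 (plus) and chr9:120492429-120492489 (plus).
Eif1ax: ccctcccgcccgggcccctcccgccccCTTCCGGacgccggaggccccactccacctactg
Eif1ad: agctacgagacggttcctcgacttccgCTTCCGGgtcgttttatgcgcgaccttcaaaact
Eif1b: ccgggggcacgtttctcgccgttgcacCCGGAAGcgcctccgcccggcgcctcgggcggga

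The counts of falls with and without each motif were as follows. Of all 15069 genes tested 25.2% fell, and the share of falls among all genes with each motif was not counted. Of the 12 members with CACGTG 9 fell in icKO IPs, against 20 of the 35 without it, and the medians were -0.21 and -0.17. Of the 17 members with the ETS-type motif 12 fell, against 17 of 30 without it, with medians of -0.23 and -0.14. TGATGNAA was in a window of 1 member, Eef2k, and of 4.51% of all genes. These are matches of letters, not measured binding sites, and on the mature oligodendrocyte scale the falls turn into values above 0.

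Other genes of the translation pathway gave the setting. For comparison with the counts by list, 25.2% of all 15069 genes tested fell in icKO IPs and 22.1% rose. Of the cytosolic ribosomal proteins 69 of 76 tested fell and 0 rose (edgeR, also 0 at an unadjusted p under 0.05, and 56 lower and 0 higher in DESeq2), with a median log2 change of -0.32, among them Rpl41 (-0.63) and Rpl18 (-0.59). Their ratios were below 0 in the inputs too, for 74 of 78 with a median log2 ratio of -0.18, and 24 of 77 passed as lower in IP than in input by the test of that difference in edgeR. Over 15451 genes 47.5% of input ratios were below 0. Of 20 cytosolic tRNA synthetases 9 fell and 0 rose in edgeR (3 higher at an unadjusted p under 0.05, 0 in DESeq2), including Hars (-0.26) and Kars (-0.22). Of the poly(A)-binding group 3 of 6 fell and 0 rose (0 at an unadjusted p and in DESeq2): Paip2 (-0.40) and Paip2b (-0.37), which displace poly(A)-binding protein from mRNA, and Paip1 (-0.33), which helps it to contact eIF4A. Of other initiation helpers, 4 of 10 fell and 1 rose, the ones of largest change being Denr (-0.41), Bzw1 (-0.32), a competitor of eIF5, and Dhx29 (0.17), a helicase for structured leaders. All of these falls are TMM-scaled, and another scaling shifts them by as much as it shifts the median of all genes, which on the mature oligodendrocyte scale is 0.71.

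Signalling and stress genes of the pathway were mixed, where 25.2% of all 15069 genes tested fell and 22.1% rose. In the mTOR and MNK list 5 of 14 rose and 3 fell, among them Rps6kb2 (0.36), an S6 kinase, and Mknk1 (0.32), which phosphorylates eIF4E, against Akt1s1 (-0.42), an mTORC1 inhibitor, and Rheb (-0.26), its activator. In the list of eIF2 stress targets and phosphatase subunits 4 of 9 fell and 1 rose. Atf4, the transcription factor translated when eIF2 is phosphorylated, went from 67.6 and 70.0 CPM to 56.1 and 57.3 CPM (-0.28 ± 0.06, edgeR adjusted p = 0.000136). Ddit3 (-0.33), Ppp1r15a (-0.31) and Ppp1r15b (-0.31) fell too, and Gcn1l1 rose (0.12). Atf4 and Ddit3 lie on the far side of the kinases, and their mRNAs were lower in the libraries in which Eif2ak4 was higher. In the same libraries Eif2ak3 (-0.22) and Eif2ak1 (-0.31) were lower. Kinase activity was not measured, and a link between these changes was not tested.

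The remaining lists were small, and over all 15069 genes tested 25.2% fell and 22.1% rose. Of 8 genes that modify eIF5A or eEF2, Dph3 (-0.56), a diphthamide synthesis gene, fell and 7 did not pass. Of 3 selenocysteine elongation genes, Secisbp2l (-0.30) fell and Secisbp2 (0.17) rose. Of 6 release and recycling genes, Gspt1 (-0.14), a release factor, fell and Hbs1l (0.30), a rescue factor, rose. Among 9 mitochondrial factors 4 rose and 1 fell, led by Gfm2 (0.54), which recycles mitochondrial ribosomes, and Mtrf1l (0.47), a release factor, with Tufm (-0.18), the mitochondrial elongation factor that brings tRNA, lower.

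Transcript length was checked as well. The Spearman correlation of the log2 change with transcript length was 0.18 over the 59 members and 0.19 over 14492 genes. The 22 members under 2000 bases had a median log2 change of -0.23, and the 15 members over 4000 bases had -0.13. With the length trend removed, 25 members were lower and 3 higher, the median was -0.11, and 24 of the lower and 2 of the higher ones were the same genes. Eif2ak4 was at 0.49 and Eif2d at 0.43 on that scale, and both passed. Eif4e (-0.19) and Eif4ebp3 (0.49) then passed, while Eef1a2 (-0.01), Eef1d (-0.14), Eef2k (0.05), Eif3d (-0.07), Eif3g (-0.03), Eif3h (-0.03), Eif3i (-0.13), Eif3k (0.01), Eif3m (-0.07), Eif4a1 (-0.08) and Eif4a3 (-0.11) did not.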

How the data were processed

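The authors deposited raw read counts per gene symbol for 6 libraries, without normalization. Per the submitters' processing notes, Trimmomatic 0.39, STAR 2.7.10b and the build mm10 were used. The sources used here do not give the counter, its strand setting or its handling of reads that map to several places. Members with close paralogs or processed pseudogenes (Eef1a1, Eif1a and Eif1ax, Eif1 and Eif1b, Eif4a1, Eif5a) and the 14 members that overlap another gene of the table are therefore uncertain, among them Eef1b2, Eef1d, Eif1ad, Eif2d, Eif2ak1, Eif2s2, Eif3m, Eif4a2, Eif4g3 and Eif5b. Of the 24421 genes, 10 had no value in the inputs and were left out.

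Sample titles gave group and replicate number (1 icKO IP title reads cKO, and its genotype label icKO). After TMM scaling, filterByExpr chose the genes, and edgeR 4.0.16 (R 4.3.3) gave two-sided quasi-likelihood p-values, adjusted over all genes tested, with a threshold of 0.05. The genotype comparison used the 4 IP libraries (2 residual degrees of freedom), IP against input used all 6 with genotype as a term, and the difference between both changes used 4 groups. SE is the log2 change divided by the root of F. CPM of single libraries used TMM factors over all 6 libraries, and ratios of the 2 inputs used a prior count of 2 with exact 95% intervals. Squared differences within replicate pairs were 2.19 (control) and 2.13 (icKO) times those of sampling noise, so neither pair was 1 library sequenced again. They do not show that the pools were of different mice, and the common coefficient of variation of the IPs was 3.01%. Between the inputs, which differ in genotype, the ratio was 5.63. Library totals above set the depth, and 3 counts were at most 0.158 CPM.

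Lengths came from GENCODE M21 (principal or else longest transcript) and promoter windows from RefSeq. The fits were tested on simulated data. Alternatives were other scalings, filters, DESeq2 1.42.0, a replicate block, a transcript length offset and each library left out. The length offset for IP against input was chosen after seeing the data. The members, role groups, pathway lists and cell markers were chosen with earlier results of these data known. Named were 27 core members always, the 10 largest called rises and falls of at least 1 CPM on average in each tested comparison, the 5 largest of each sign for the difference between changes, and the 2 largest of each sign in each pathway list, and other members were named after their values were seen.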

Additional observations from a re-analysis of the deposited data

Results flagged for a closer look

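Members whose genotype change differed between IP and input, by the test of that difference itself, are given here as log2 change in IP minus log2 change in input (edgeR quasi-likelihood test, Benjamini-Hochberg adjusted p). There is 1 input per genotype, so the spread of inputs was not measured and was taken from the IP pairs. Eif1ad is listed with the scanning factors, and Eif4g2 with the cap-complex genes, by family only. Scanning factors were lower in IP: Eif1ax -0.53 (0.00246), Eif1ad -0.49 (0.0240), Eif1 -0.43 (0.000166), Eif1b -0.40 (0.0147) and Eif5 -0.18 (0.0482). The eIF5A genes differed by -0.45 for Eif5a (6.73e-05) and -0.44 for Eif5a2 (0.0336). Among cap-complex genes the differences were -0.36 for Eif4g2 (6.91e-07), -0.33 for Eif4h (0.000274) and -0.32 for Eif4a1 (0.000540), and those of eIF3 were -0.29 for Eif3b (0.00699) and -0.23 for Eif3c (0.00182). Elongation factors gave -0.25 for Eef1b2 (0.0394), -0.14 for Eef1a2 (0.0172) and -0.14 for Eef2 (0.00901). The change was higher in IP for Eif4a2 at 0.22 (0.00200), Eef2k at 0.29 (0.0430) and Eif2ak4 at 0.36 (0.0210). For Eif4a2 the IP value was near 0 and the input ratio was -0.26, so the difference lies on the input side. The input ratio was opposite in sign to the IP change, and adds to the difference, for Eif3b (0.14), Eif4a1 (0.13), Eif5a2 (0.18), Eef1a2 (0.05) and Eef2k (-0.15). It was also above 0 for Eif5 (0.05), Eif1ax (0.04), Eif1ad (0.01), Eif1 (0.01) and Eif5a (0.00), with counting intervals that include 0. No group held 4 libraries, so single libraries were not screened as outliers.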

How the results depend on the processing

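Between genotypes, the members called lower and higher numbered 34 and 3. The counts stayed within 1.5 times of these with DESeq2 size factors (34 and 3), library totals (43 and 2), markers of other cell types (44 and 2), all 6 libraries in 1 fit (34 and 3), no filter (35 and 2), DESeq2 (23 and 2) and the length offset (25 and 3), and with single IP libraries left out (26 to 32 and 2 to 3). With genes of at least 5 CPM, 31 were lower and 6 higher. Scaled to mature oligodendrocyte markers, 0 were lower and 57 higher. On that scale, whose all-gene median was 0.71, these named members turned positive (log2): Eef1e1 0.10, Eif1ax 0.22, Eif1ad 0.23, Eif4g2 0.25, Eif5a 0.27, Eif1b 0.29, Eif1 0.29, Eif4h 0.31, Eif6 0.31, Eef1b2 0.35, Eif4ebp2 0.37, Eif5a2 0.45, Eif4a3 0.46, Eif4b 0.46, Eef1a1 0.47, Eif2ak3 0.48, Eif2s1 0.51, Eif3h 0.51, Eef1d 0.52, Eif4a1 0.52, Eef2 0.56, Eif4e 0.56, Eif2b5 0.57, Eif5 0.58, Eif4g1 0.60, Eef1a2 0.62, Eif3e 0.63, Eef1g 0.64, Eif2b3 0.67, Eif4a2 0.67 and Eif3a 0.70. Among 39 named members, 8 lost their call in DESeq2: Eef1a2, Eef1d, Eef1e1, Eef2k, Eif2s1, Eif3h, Eif5 and Eif5a2. The fit with the replicate number as a block gave 34 lower and 3 higher. Same-numbered IPs did not deviate together (correlation -0.0031), so the numbers show no pairing.

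For IP against input, main counts of 30 lower and 15 higher became 28 to 39 and 12 to 17 with 1 library left out, and 26 and 14 with the length offset. Eif4g2 turned to -0.34 and Eif4g3 to -0.0098 with that offset, and in icKO libraries alone Eif4a1 and Eif4g2 were at -0.13 each. With single libraries left out, Eif4a1 ranged from -0.13 to 0.18 and Eif4g2 from -0.14 to 0.22. The ends of both ranges come from fits without an input, which rest on a single genotype. For the difference between IP and input changes, 15 lower and 3 higher became 24 and 1 with library totals and 7 and 1 with DESeq2. The cause of these shifts was not tested.

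The inputs, with 1 library per genotype, give no replicate check, and low members (Eif4ebp1, Eif4ebp3, Eef2kmt, Eef1e1) are limited by their counts.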
